A study of Mus musculus with 6 samples.

Results

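The genes described here are 10 genes of MHC class I antigen presentation, chosen by name out of 46983 genes counted in the series. They are B2m, the class I heavy chain genes H2-K1, H2-D1, H2-Q4, H2-Q7 and H2-T23, the peptide transporter genes Tap1 and Tap2, the loading factor gene Tapbp and the transcriptional activator gene Nlrc5. All 10 were found in the files and all 10 passed the filter on low counts. Total RNA without its ribosomal fraction was sequenced. It came from naive CD4 T cells of male mice, sorted from lymph nodes as live cells positive for TCRb, CD4 and CD62L and negative for CD44. The 2 control libraries came from Cmtr1 fl/fl mice labelled CD4cre -, and the 4 libraries labelled Cmtr1 cKO came from Cmtr1 fl/fl mice labelled CD4cre +, so both groups carry the floxed alleles. CD4-Cre recombines floxed alleles throughout the T lineage from the thymus onward, and Cre and the deletion are not separated by this design. CMTR1 is a cap methyltransferase that modifies the ribose next to the cap of new RNAs. The labels give no age, strain or MHC haplotype, and class I genes differ in sequence between mouse haplotypes. Whether each library is a different mouse is not labelled. The p-values thus measure only the spread between these libraries, which may be technical.

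Class I molecules show fragments of a cell's own proteins at its surface. A heavy chain pairs with the small light chain beta-2 microglobulin in the endoplasmic reticulum, where tapasin, bound to the TAP transporter, helps it to take up a peptide that TAP has pumped in from the cytosol. Almost all nucleated cells carry class I, and lymphocytes carry much of it. In T cells the activator NLRC5 acts with the RFX and NF-Y factors at class I promoters.

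Gene counts per library ran from 9513874 (Cmtr1 cKO 3) to 11949838 (control 1). Among uniquely mapped reads, the part lying outside annotated exons came to 37.2% and 33.96% in the controls and 52.3%, 51.6%, 46.7% and 38.0% in Cmtr1 cKO 1 to 4. The group means of this outside-exon share were 35.6% ± 2.3 (SD, n = 2) and 47.2% ± 6.6 (SD, n = 4), with an exact permutation p of 0.133 (two-sided), where the smallest possible over 15 splits is 0.0667. Cmtr1 cKO 4 is thus the library nearest to the controls by that share, and Cmtr1 cKO 3 had 4.77% of its gene counts on the ribosomal RNA gene CT010467.1. Cmtr1 itself had 11.2 and 11.4 CPM in the controls, against 16.01, 19.8, 14.6 and 7.57 CPM in Cmtr1 cKO 1 to 4. CPM are read counts brought to a common library size. The count covers the whole gene and the deleted exon is not given, so it does not check the labels.

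The promoters of the main members are shown first. H2-K1 and H2-Q4, whose RNA levels differed in direction, share some of these letters and not others. Whether the letters bear on the RNA levels was not tested. Promoter windows from RefSeq (GRCm38.p6), 250 bases before to 50 after the start, matched 8 of the 10 genes. Tap2 and Nlrc5 had no entry. The 200 bases before the start of B2m (chr2:122147487-122147686, plus strand), H2-K1 (chr17:34000348-34000547, minus strand) and H2-Q4 (chr17:35379417-35379616, plus strand) are printed with motif matches in capitals.
B2m: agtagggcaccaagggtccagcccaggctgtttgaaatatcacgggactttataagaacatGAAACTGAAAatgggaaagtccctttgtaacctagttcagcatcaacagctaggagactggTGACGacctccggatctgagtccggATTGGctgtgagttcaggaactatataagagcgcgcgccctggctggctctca
H2-K1: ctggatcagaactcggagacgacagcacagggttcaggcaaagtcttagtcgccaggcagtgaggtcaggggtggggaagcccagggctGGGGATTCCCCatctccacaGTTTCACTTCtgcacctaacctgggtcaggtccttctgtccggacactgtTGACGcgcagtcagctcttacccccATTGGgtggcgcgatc
H2-Q4: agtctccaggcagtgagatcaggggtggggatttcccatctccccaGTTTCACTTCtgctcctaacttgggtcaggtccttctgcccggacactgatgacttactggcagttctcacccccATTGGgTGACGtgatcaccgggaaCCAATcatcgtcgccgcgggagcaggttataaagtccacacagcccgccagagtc

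Each motif was searched on both strands, and a match is a description of letters, not of binding. The letters of the first 2 motifs, a kappa B site and an interferon consensus element, were read from the H2-K1 window itself, so their presence there is no result. The kappa B letters GGGGATTCCCC were also in H2-D1, and in 0.0304% of all 32851 promoter windows. Only these exact letters were searched, so a window without them is not shown to lack a kappa B site. The interferon consensus letters GTTTCACTTC were also in H2-D1, H2-Q4 and H2-Q7, and in 0.14% of all windows. The repeat of GAAA, any 2 bases and GAAA, part of interferon response elements, was in 2 of 8, B2m and H2-T23, and in 3.44% of all. The letters TGACG, found in the X2 element, were in 6 of 8 and 20.8% of all. CCAAT, the core of the Y element that NF-Y reads, was in 8 of 8 and 37.4% of all. TGACG did not lie at the same place in each window. In H2-K1 it began at -41, before the first CCAAT match at -16. In H2-Q4 its first match began at -73, after the first CCAAT match at -79. A match to TGACG thus does not place an X2 element. No matches overlapped each other in these 8 windows.

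In the 4 heavy chain windows that hold GTTTCACTTC, it follows the kappa B position by a few bases. That stretch is shown for each, with exact matches to GGGGATTCCCC and GTTTCACTTC in capitals, at chr17:34000429-34000458 (H2-K1, minus strand), chr17:35262923-35262952 (H2-D1), chr17:35379443-35379472 (H2-Q4) and chr17:35439022-35439050 (H2-Q7), the last 3 on the plus strand.
H2-K1: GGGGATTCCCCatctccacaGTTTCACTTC
H2-D1: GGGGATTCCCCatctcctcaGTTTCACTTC
H2-Q4: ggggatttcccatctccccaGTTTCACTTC
H2-Q7: ggggattcccatctccccaGTTTCACTTC
Counted from 1 at the 5′ end of the H2-K1 stretch, H2-D1 differs from H2-K1 by A18T, and H2-Q4 by C8T and A18C. C8T lies in the kappa B letters. The H2-Q7 stretch has 29 bases against 30 and was not compared base by base. The H2-D1 stretch lies before the RefSeq start but inside the GENCODE gene, which starts at 35262730. The 2 sources thus place the start of H2-D1 differently. H2-K1 and H2-D1, with the exact kappa B letters, had log2 fold changes of -0.47 and -0.42 (edgeR). The genes whose windows lack them were B2m (-0.46), H2-Q4 (0.35), H2-Q7 (-0.09), H2-T23 (-0.12), Tap1 (-0.16) and Tapbp (-0.49). A link between these letters and the RNA levels was not tested.

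**Figure D1:**
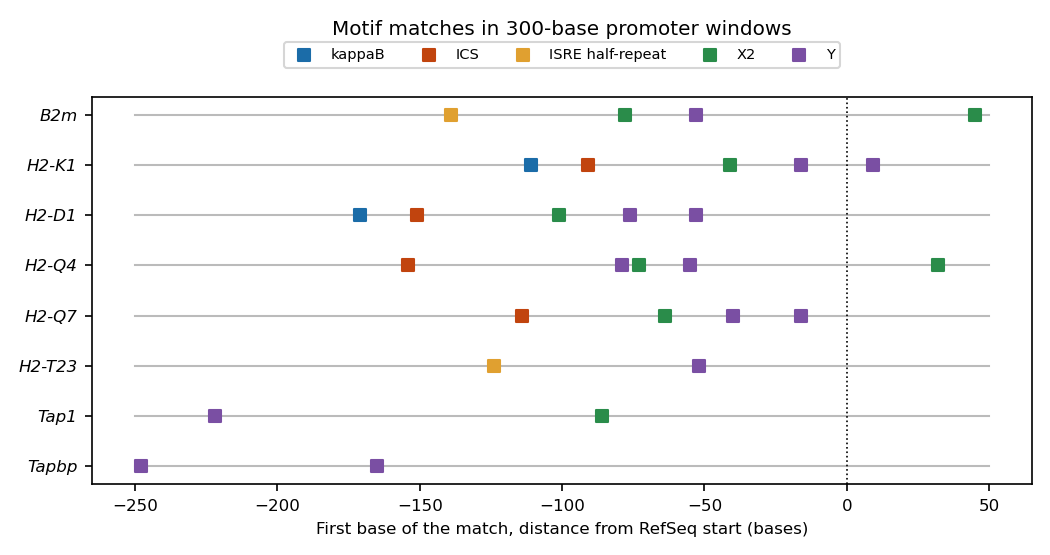
Motif matches in the RefSeq promoter windows of 8 class I genes. The x axis is the distance in bases of the first base of a match from the RefSeq start (dotted line). Each coloured square is a match to 1 of the 5 motifs on either strand. The kappa B letters appear in H2-K1 and H2-D1, and the interferon consensus letters (ICS) in those and in H2-Q4 and H2-Q7.

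The comparison asks how class I RNA in naive CD4 T cells differs between mice with and without CD4-Cre on floxed Cmtr1. The classical heavy chain genes H2-K1 and H2-D1 and the tapasin gene Tapbp were lower in the libraries labelled Cmtr1 cKO, at 72.2%, 74.8% and 71.2% of the control mean, while the non-classical gene H2-Q4 was higher, at 127.2%. B2m stood at 72.9% with a wide spread and missed the threshold, and the other 5 genes lay between 89.4% (Tap1) and 106.7% (Nlrc5). By the quasi-likelihood test of edgeR, Benjamini-Hochberg adjusted over all genes, 3 of the 10 genes were lower and 1 higher at an adjusted p under 0.05. Over the 12748 genes tested, 6.77% were called lower and 4.66% higher, and at an unadjusted p under 0.05 these shares were 15.7% and 15.1%. The median log2 fold change of the 10 genes was -0.14, against -0.00047 over all genes tested.

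B2m (ENSMUSG00000060802.8, chromosome 2, 122147686 to 122153083, GRCm38), the light chain that nearly every class I heavy chain needs, had 2488 and 2104 CPM in the controls. The 4 Cmtr1 cKO libraries, 1 to 4, had 1471, 1535, 1769 and 1916 CPM. All 4 libraries were below both controls, with Cmtr1 cKO 4 the nearest to them. The group means were 2296 ± 271 and 1673 ± 207 CPM (SD, n = 2 and n = 4), and the log2 fold change was -0.46 ± 0.14 (SE, edgeR adjusted p = 0.0508). The order of the Cmtr1 cKO libraries for B2m is the reverse of their order in the outside-exon share. With that share as a covariate the log2 fold change of B2m was -0.22 (edgeR adjusted p = 0.421). Its value was -0.32 without control 1. DESeq2 called B2m lower (-0.45, adjusted p = 0.00117), and so did edgeR without Cmtr1 cKO 4 (-0.53, adjusted p = 0.00345). In bulk RNA, fewer cells with a transcript and less of it per cell cannot be told apart, here and below.

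H2-K1 (ENSMUSG00000061232.15, chromosome 17, 33996017 to 34000347), the K heavy chain that presents peptides to CD8 T cells, had 2441 and 2467 CPM in the controls. Cmtr1 cKO 1 to 4 had 1726, 1734, 1788 and 1842 CPM. The 2 controls were close together and every Cmtr1 cKO library lay well below them. H2-K1 fell by 0.47 ± 0.11 (SE) on the log2 scale (edgeR adjusted p = 0.0199).

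H2-D1 (ENSMUSG00000073411.11, chromosome 17, 35262730 to 35267499), the D heavy chain with the same task, had 1644 and 1658 CPM in the controls. Cmtr1 cKO 1 to 4 had 1175, 1208, 1248 and 1306 CPM. As for H2-K1, the groups did not overlap, and the 4 libraries stood in the same order. H2-D1 fell by 0.42 ± 0.10 (SE) on the log2 scale (edgeR adjusted p = 0.0224). The calls of both ended without either control (H2-K1 adjusted p = 0.129 and 0.169, H2-D1 0.141 and 0.184), without Cmtr1 cKO 1 (0.0528 and 0.0601) or 2 (0.0610 and 0.0635) and with the outside-exon share as covariate (0.0606 and 0.102, edgeR). That of H2-D1 ended also without Cmtr1 cKO 3 (0.0537) and with library totals as the only scaling (0.0565). The values themselves stayed between -0.50 and -0.34 for H2-K1 and between -0.47 and -0.29 for H2-D1 over the 15 alternatives.

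H2-Q4 (ENSMUSG00000035929.11, chromosome 17, 35379617 to 35385290), a class Ib heavy chain of the Qa region, moved the other way. It had 277 and 290.1 CPM in the controls, against 359, 372, 379 and 333 CPM in Cmtr1 cKO 1 to 4. Every Cmtr1 cKO library was above both controls, with Cmtr1 cKO 4 the nearest to them. H2-Q4 rose by 0.35 ± 0.08 (SE) on the log2 scale (edgeR adjusted p = 0.0184), a 1.27-fold difference. The call ended without control 1 (0.32, adjusted p = 0.151), control 2 (0.39, 0.127), Cmtr1 cKO 2 (0.33, 0.0501) and Cmtr1 cKO 3 (0.34, 0.0618). It held with the outside-exon share as covariate (0.25, edgeR adjusted p = 0.0423).

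**Figure D2:**
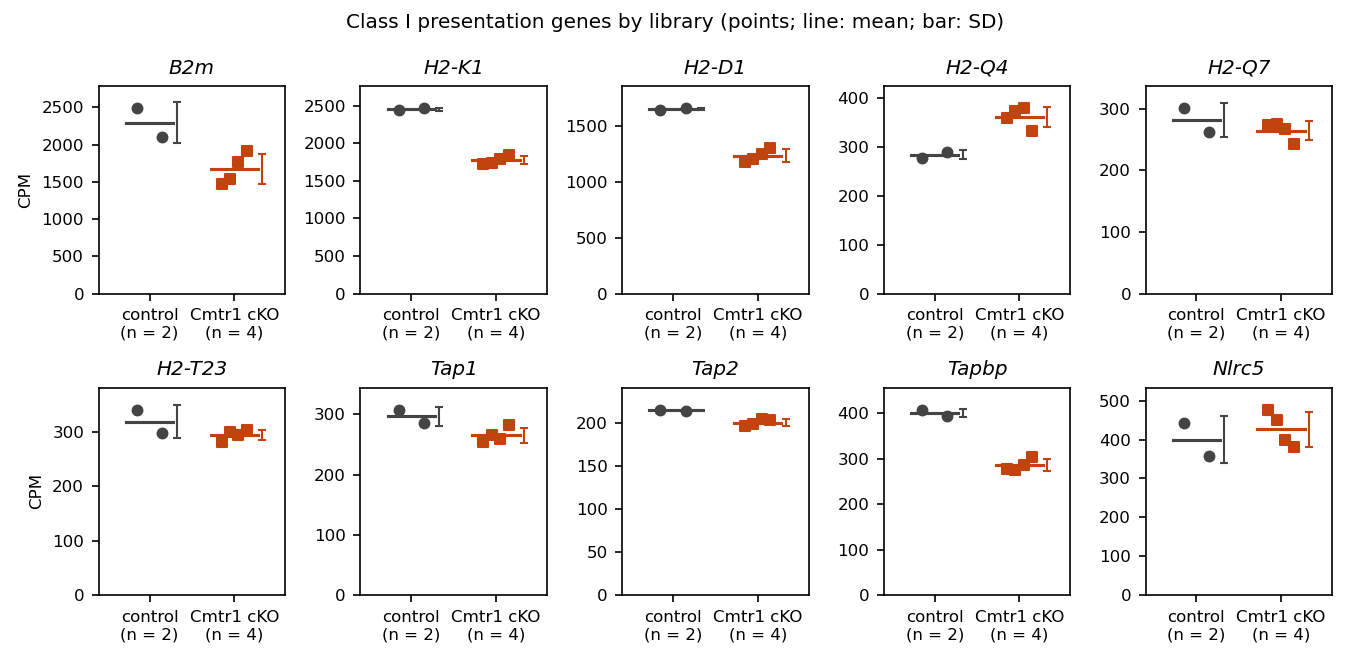
CPM of the 10 class I genes in each library, with 2 control libraries as circles and 4 Cmtr1 cKO libraries as squares. The line is the group mean, the bar is its SD, and every y axis starts at 0; H2-K1, H2-D1, Tapbp and B2m lie below the controls in all 4 Cmtr1 cKO libraries and H2-Q4 lies above them.

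H2-Q7 (ENSMUSG00000060550.15, chromosome 17, 35439155 to 35443773), which encodes a Qa-2 heavy chain, had 301 and 263 CPM in the controls. It had 273, 275, 266 and 242 CPM in Cmtr1 cKO 1 to 4. The groups overlapped, and the log2 fold change was -0.09 ± 0.08 (SE, edgeR adjusted p = 0.467). With the outside-exon share as covariate H2-Q7 was called lower (-0.26, adjusted p = 0.0356), and with library totals as the only scaling its sign turned (0.03).

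H2-T23 (ENSMUSG00000067212.8, chromosome 17, 36029773 to 36032855) encodes Qa-1, which presents signal peptides of other class I molecules to NKG2A receptors of natural killer cells. It had 340 and 297 CPM in the controls, against 281, 299, 294 and 303 CPM in Cmtr1 cKO 1 to 4. The groups overlapped, and the log2 fold change was -0.12 ± 0.08 (SE, edgeR adjusted p = 0.328; 0.01 with library totals as the only scaling).

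The fitted values of the heavy chain genes thus differed in sign. The H2-Q4 to H2-K1 ratio of CPM was 0.114 and 0.118 in the controls and 0.208, 0.215, 0.212 and 0.181 in Cmtr1 cKO 1 to 4. On the log2 scale the mean ratio was higher by 0.82. H2-K1 over H2-D1 stayed near 1.49 in both controls and between 1.41 and 1.47 in the Cmtr1 cKO libraries (difference -0.05 on the log2 scale). H2-K1 over B2m was 0.981 and 1.17 in the controls and 1.17, 1.13, 1.01 and 0.961 in Cmtr1 cKO 1 to 4, which overlap (difference -0.01). The ratios were chosen after the values were seen and are given as a description. Exact permutation tests, adjusted over 6 ratios, gave p = 0.1 for H2-Q4 over H2-K1 and for H2-K1 over H2-D1. For H2-K1 over B2m the same test gave 0.933. Over 15 splits the smallest possible p before adjustment is 0.0667, so no ratio could pass 0.05 by this test. H2-Q4 over H2-K1 and H2-K1 over H2-D1 both stood at that smallest p.

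A sum was taken over the 25 listed class I heavy chain names found in the files. H2-Q5, H2-T10, H2-Bl and Gm10499 among them are annotated as pseudogenes, and genes outside the list, such as H2-K2, are left out. The summed CPM were 5616 and 5469 in the controls and 4356, 4454, 4541 and 4580 in Cmtr1 cKO 1 to 4. The sum of the Cmtr1 cKO group differed from that of the controls by -0.31 on the log2 scale. H2-K1 and H2-D1 made up 74.1% ± 1.9 of this sum in the controls and 67.1% ± 1.2 in Cmtr1 cKO (SD, n = 2 and n = 4). H2-Q4 made up 5.12% ± 0.26 and 8.05% ± 0.53 (SD). The sum is not affected by how reads were divided among these copies, but it misses reads that map to several of them. Reads mapping to several places were 9.51% and 10.5% of reads in the controls. In Cmtr1 cKO 1 to 4 they were 6.42%, 6.61%, 8.13% and 8.92%. How many of them came from class I genes is not known.

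Close copies limit what a count of uniquely mapped reads can hold. The labels give no read length, so the transcripts of each gene were cut into all stretches of 50, 75 and 100 bases and compared with the GENCODE vM21 transcripts of every other gene, on either strand. At 75 bases, B2m shared 0%, H2-K1 3.1%, H2-D1 5.56%, H2-T23 5.91%, H2-Q7 17.0% and H2-Q4 20.7% of its stretches with another gene. Nlrc5 shared 0.0462%, Tap1 2.4%, Tap2 8.27% and Tapbp 18.6%, of which 17.5% was with Gm19412, a gene inside Tapbp on the other strand. H2-Q4 shared most with Gm11131, whose exons overlap it on the other strand (13.4%), and 3.43% with H2-Q6. H2-Q7 shared 8.88% with H2-Q10 and 5.32% with H2-Q5. These shares count stretches of 2 genes that overlap at the same place, as for Gm19412 and Gm11131, and such overlaps are not copies. Counted so, H2-K1 and H2-Q4 keep 96.9% and 79.3% of their stretches to themselves at 75 bases. At 50 bases these were 90.4% and 63.6%. Copies outside the annotated transcripts were not examined.

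Tap1 and Tap2 encode the subunits of the transporter that carries peptides into the endoplasmic reticulum. Tap1 (ENSMUSG00000037321.17, chromosome 17, 34187553 to 34197225) had 308 and 286 CPM in the controls, against 254, 266, 259 and 283 CPM in Cmtr1 cKO 1 to 4. All 4 libraries were below both controls, Cmtr1 cKO 4 by a small margin, and the log2 fold change was -0.16 ± 0.07 (SE, edgeR adjusted p = 0.163). Without Cmtr1 cKO 4 it was -0.19 and called (adjusted p = 0.0274), whereas it was -0.096 without control 1, -0.034 with library totals as the only scaling and -0.079 with the outside-exon covariate (edgeR adjusted p = 0.603, 0.794 and 0.608). Tap2 (ENSMUSG00000024339.12, chromosome 17, 34203527 to 34216321) had 215 and 214 CPM in the controls, against 196, 198, 204 and 203 CPM in Cmtr1 cKO 1 to 4. Those groups did not overlap either, but the difference was small (-0.10 ± 0.06, SE, edgeR adjusted p = 0.314; 0.03 with library totals as the only scaling).

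Tapbp (ENSMUSG00000024308.14, chromosome 17, 33915899 to 33929292) encodes tapasin, which bridges the heavy chain to TAP and edits its peptide. It had 408 and 395 CPM in the controls, against 277, 276, 287 and 303 CPM in Cmtr1 cKO 1 to 4. The groups were far apart relative to their spread, 401 ± 9 against 286 ± 13 CPM (SD, n = 2 and n = 4). Tapbp fell by 0.49 ± 0.07 (SE) on the log2 scale (edgeR adjusted p = 0.00188). It was the only 1 of the 10 genes called under all 15 alternatives, with values from -0.54 to -0.36 and a highest adjusted p of 0.0487 (edgeR or the named tool). Tapbp over Tap1 was 1.33 and 1.38 in the controls and 1.09, 1.04, 1.11 and 1.07 in Cmtr1 cKO 1 to 4. The difference was -0.33 on the log2 scale (exact permutation p = 0.1, adjusted over 6 ratios). This ratio too was chosen after the values were seen, and its test could not pass 0.05 either. Genes on the other strand overlap 24.9% of the exon bases of Tapbp, and antisense counts were at most 0.959% of its sense counts in any library.

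Nlrc5 (ENSMUSG00000074151.12, chromosome 8, 94434356 to 94527272) encodes the activator of class I promoters. It had 442 and 357 CPM in the controls, against 477, 450.1, 398 and 381 CPM in Cmtr1 cKO 1 to 4. The groups overlapped and the controls differed from each other by more than the group means did. The log2 fold change was 0.09 ± 0.11 (SE, edgeR adjusted p = 0.595), with 0.27 without control 1, -0.04 without control 2 and -0.18 with the outside-exon share as covariate.

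**Figure D3:**
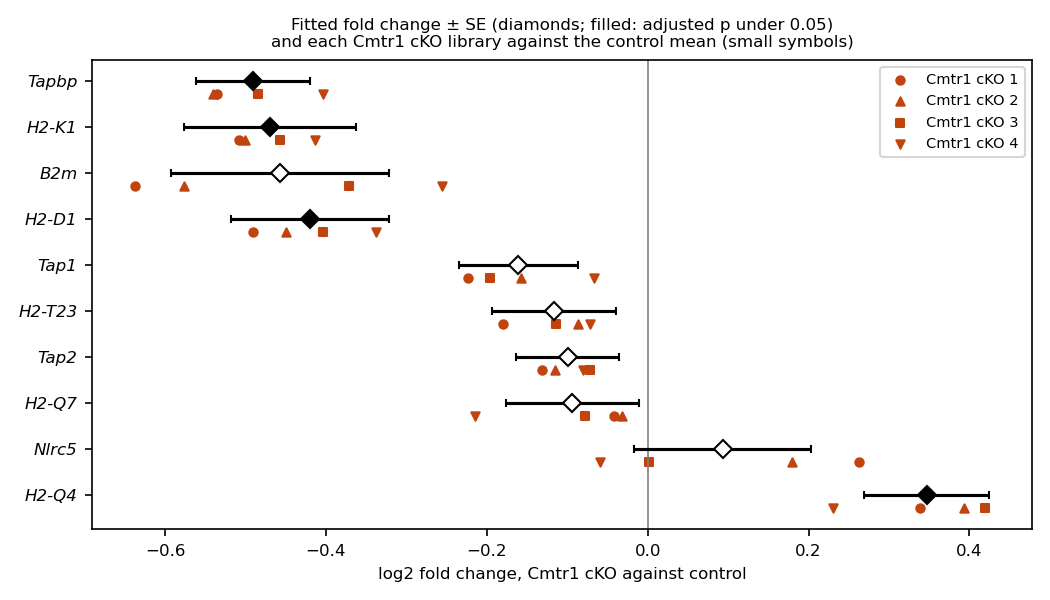
Log2 fold change of each class I gene between Cmtr1 cKO and control, ordered from lowest to highest. Diamonds with bars are the fitted values ± SE, filled where edgeR's adjusted p was under 0.05, and the small symbols below them are the 4 Cmtr1 cKO libraries against the control mean; Tapbp, H2-K1, B2m and H2-D1 lie together at the left, apart from the other 6.

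In all, 6 of the 10 genes had every Cmtr1 cKO library below both controls and 1 had every one above, where 20.8% and 18.2% of all genes tested did so. The 4 lowest genes, chosen after their values were seen, had a median log2 difference from the control mean of -0.52, -0.52, -0.43 and -0.37 in Cmtr1 cKO 1, 2, 3 and 4. The outside-exon share stood in the same order of distance from the controls, and its part in this was not tested beyond the covariate. Every Cmtr1 cKO library had a higher share than both controls. The covariate fit on these 6 libraries thus cannot fully tell the share and the genotype apart, here and wherever it is given.

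Levels can be set side by side between genes only per length of exon. In the controls B2m had 2670 CPM per kb of annotated exon, H2-K1 835 and H2-D1 640.2. Tapbp, H2-T23 and H2-Q4 followed at 111, 110.3 and 109 CPM per kb, with ranges over the 2 controls that met each other. H2-Q7 had 66.1, Tap2 56.7, Tap1 54.2 and Nlrc5 47.1 CPM per kb, and no other neighbours in this order had ranges that met. In the Cmtr1 cKO libraries H2-Q4, at 139 CPM per kb, stood above H2-T23 (102) and Tapbp (78.7), with ranges that did not meet. Annotated exon length counts every exon of every transcript, so these levels understate genes with long rarely used exons.

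Profiles over the 6 libraries were compared by the root-mean-square difference of log2 CPM, each gene centred on its own mean. Among the 10 genes, H2-K1 lay nearest to Tapbp (0.026) and H2-D1 (0.029), and farthest from H2-Q4 (0.39). Nlrc5 lay nearest to H2-Q7 (0.12) and was 0.31 from H2-K1. Outside the class I and marker lists, the 5 genes most like H2-K1 were Poc1b (0.025), a centriole protein, Jkamp (0.026), a membrane protein of the endoplasmic reticulum, Ergic3 (0.039), of traffic between endoplasmic reticulum and Golgi, Jpt1 (0.041) and Cbx5 (0.043), the heterochromatin protein HP1 alpha. The 5 most like Nlrc5 were Slc25a26 (0.029), the mitochondrial carrier of S-adenosylmethionine, Eif2ak2 (0.042), the interferon-induced kinase PKR, Smug1 (0.049), a uracil DNA glycosylase, Sgms1 (0.049), a sphingomyelin synthase, and Sema4f (0.050). Such lists over 6 libraries describe these libraries and rest on few points.

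The rest of the pathway was read from 5 lists with 64 names, of which 61 were found in the files and 47 passed the filter. Of these 47 genes 5 were lower and 1 higher by edgeR, where 6.77% and 4.66% of all genes were, and their median log2 fold change was -0.10. Without Cmtr1 cKO 4 it was 12 lower and 3 higher, where 15.4% of all genes were called in each direction. Of 22 other heavy chain names 20 were found, 6 had no counts in any library, 7 stayed under the filter and 7 were tested. None of the 7 was called by edgeR. At an unadjusted p under 0.05 there were 2 lower (H2-T22 and H2-M3) and 1 higher (H2-Q5), which DESeq2 also called. Over all genes 15.7% were lower and 15.1% higher at an unadjusted p under 0.05, and 5.41% were higher by DESeq2. H2-Q5 and H2-Q6, neighbours of H2-Q4 in the Qa region, had log2 fold changes of 0.43 (edgeR adjusted p = 0.0707) and 0.30 (0.203). H2-T22 had -0.21 (0.0738) and H2-M3, which presents formylated peptides, -0.22 (0.11).

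Of the 4 tested class I-like partners of B2m, edgeR called 1 lower and 0 higher. At an unadjusted p under 0.05 these were 1 and 1, and by DESeq2 1 and 0. Over all genes 6.77% were lower and 4.66% higher by edgeR, 15.7% and 15.1% at an unadjusted p under 0.05, and 5.91% and 5.41% by DESeq2. Fcgrt, the neonatal Fc receptor chain, fell from 5.25 ± 0.13 to 1.58 ± 1.09 CPM (SD), by 1.70 ± 0.43 (SE) on the log2 scale (edgeR adjusted p = 0.0306). Fcgrt had few reads, 59 and 55 in the controls and 20, 9, 6 and 35 in Cmtr1 cKO 1 to 4. Its counting error reached 40.8%. Its level in Cmtr1 cKO 4 was 3.01 CPM against 0.635 to 1.85 in the other Cmtr1 cKO libraries, and with the outside-exon share as covariate the value was -0.82 (adjusted p = 0.374). The call held without Cmtr1 cKO 4 (-2.22) and ended without any other library (edgeR adjusted p = 0.061 to 0.195). Cd1d1, which presents lipids to NKT cells, had 0.25 and Mr1, which presents vitamin B metabolites, -0.11.

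Of 13 genes of peptide supply 1 was higher and 0 lower by edgeR (1 and 1 at an unadjusted p under 0.05, 1 and 0 by DESeq2), where 4.66% of all genes were higher by edgeR, and the median was 0.05. The gene that rose was Nrd1, the protease nardilysin, from 149.5 ± 14.0 to 184.2 ± 9.3 CPM (SD), by 0.30 ± 0.08 (SE, edgeR adjusted p = 0.0332). Its call ended with the outside-exon share as covariate (0.12) and without any library but Cmtr1 cKO 4 (edgeR adjusted p = 0.0619 to 0.246). The immunoproteasome genes Psmb8 and Psmb10 had -0.25 and -0.20, the activator genes Psme1 and Psme2 -0.20 and -0.15, and Erap1, the peptide trimming enzyme of the endoplasmic reticulum, -0.13. None of these 5 passed the test. Psmb9, which lies head to head with Tap1 and shares 212 exon bases with it on the opposite strand, had 0.10.

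Folding and loading genes of the endoplasmic reticulum were lower for 3 of 8 tested and higher for 0 by edgeR (4 and 0 at an unadjusted p under 0.05 and by DESeq2), with a median of -0.21. Over all genes 6.77% were lower by edgeR, 15.7% at an unadjusted p under 0.05 and 5.91% by DESeq2. Pdia3, the oxidoreductase ERp57 that pairs with tapasin, fell from 273 ± 15 to 218 ± 23 CPM (SD), by 0.32 ± 0.09 (SE, edgeR adjusted p = 0.0453). Bcap31, which carries class I out of the endoplasmic reticulum, fell by 0.31 ± 0.08 (edgeR adjusted p = 0.0317), and Canx, the chaperone calnexin, by 0.30 ± 0.08 (0.0359). Calr (calreticulin) had -0.27 (0.0696). With the outside-exon share as covariate none of these 3 calls held (Pdia3 -0.10, Bcap31 -0.17, Canx -0.12, edgeR adjusted p = 0.519, 0.305 and 0.335). None of the 3 held without 1 of the controls, Cmtr1 cKO 1, 2 or 3, or with library totals as the only scaling, and those of Pdia3 and Canx ended on unstranded counts.

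Among 15 factors that act on class I promoters 1 was lower and 0 higher by edgeR (1 and 0 also at an unadjusted p under 0.05 and by DESeq2), a share near the 6.77% of all genes called lower. It was Irf1, the interferon regulatory factor that binds the interferon consensus letters of class I promoters. Irf1 had 291 and 278 CPM in the controls, against 224, 219, 235 and 235 CPM in Cmtr1 cKO 1 to 4. The groups did not overlap, and Irf1 fell by 0.32 ± 0.07 (SE) on the log2 scale (edgeR adjusted p = 0.0158). With the outside-exon share as covariate it was still called, at -0.26 (0.0329), and the call ended without control 1 or 2 (adjusted p = 0.156 and 0.127), Cmtr1 cKO 2 or 3 (0.0510 and 0.0549) and with library totals as the only scaling (0.0857). Rfx5, the DNA-binding RFX subunit with which NLRC5 works, had 0.07 ± 0.09 (SE, edgeR adjusted p = 0.634).

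**Figure D4:**
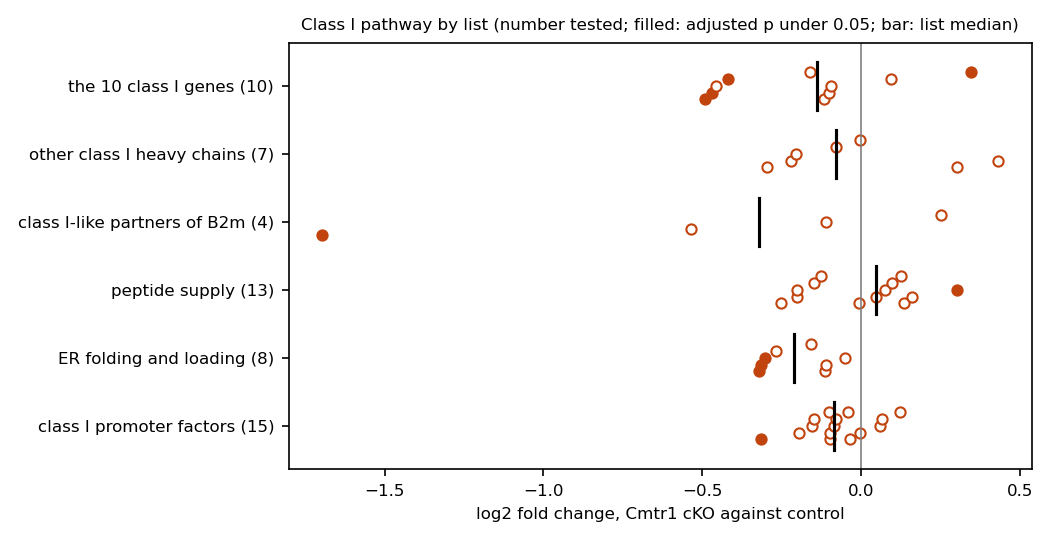
Log2 fold change of the 10 class I genes and of the tested genes of 5 other class I lists, 1 point per gene. Filled points had an edgeR adjusted p under 0.05 and black bars are list medians; the folding and loading genes lie to the left of 0 and the point at the far left is Fcgrt.

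The sorted cells had the transcripts of their label. Cd4 had 755 to 864 CPM over the 6 libraries, and the 8 CD4 T cell markers summed to 5142 to 5225 CPM in the controls, against 4812 to 5723 CPM in Cmtr1 cKO. Of these 8, edgeR called 1 lower, Ccr7 (-0.36), and 0 higher. At an unadjusted p under 0.05 and by DESeq2, 1 was lower and 1 higher. Over all genes 6.77% were lower by edgeR, 15.7% at an unadjusted p under 0.05 and 5.91% by DESeq2. The shares that were higher were 4.66%, 15.1% and 5.41%. Markers of other cells that carry class I were low. The 6 B cell markers summed to 28.9 and 39.3 CPM in the controls, against 20.5 to 38.2 CPM in Cmtr1 cKO, and edgeR called 0 of 6 (0 also at an unadjusted p under 0.05 and by DESeq2). The 7 myeloid and dendritic cell markers summed to 43.3 and 24.9 CPM and to 22.7 to 27.3 CPM, with Itgax at 0 in Cmtr1 cKO 3 and Flt3 at 0 in Cmtr1 cKO 2. Of the 3 tested, edgeR called 0 (1 was lower at an unadjusted p under 0.05 and by DESeq2). The 5 natural killer cell markers summed to 14.7 and 16.8 CPM in the controls, against 5.71 to 8.69 CPM in Cmtr1 cKO. Of the 2 tested, edgeR called 1 lower (Klrd1). DESeq2 also called 1 lower, and both were lower at an unadjusted p under 0.05. The 2 CD8 genes summed to 28.7 and 23.6 CPM and to 17.0 to 21.3 CPM and edgeR called 0 of them (both were lower at an unadjusted p under 0.05, and DESeq2 called 0). Regulatory T cell markers summed to 87.6 and 129.7 CPM and to 104 to 145 CPM, with 0 of 3 called by edgeR, at an unadjusted p under 0.05 or by DESeq2. Effector markers summed to 44.1 and 38.1 CPM and to 26.2 to 32.7 CPM. Of these only Cd44 was tested, and it was lower by edgeR, at an unadjusted p under 0.05 and by DESeq2. Stromal and endothelial markers were at 309 to 340.1 CPM, nearly all from Pecam1, which naive T cells express, with Pdpn at 0 in every library.

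Of 11 genes of the MHC class II pathway, which serves antigen-presenting cells, 6 were lower and 0 higher by edgeR (9 and 0 at an unadjusted p under 0.05, 6 and 0 by DESeq2), where 6.77%, 15.7% and 5.91% of all genes were lower. Their sum was 438 and 440 CPM in the controls, with 280 to 319 CPM in Cmtr1 cKO. Ctss, the protease cathepsin S, gave 257 and 238 CPM of the control sums and 156 to 194 CPM of the others. H2-Aa, a class II alpha chain, had 21.0 and 24.2 CPM in the controls, against 9.42 to 14.96 CPM in Cmtr1 cKO. The part of other cells in the class I values was not tested.

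Direction was less dependent on the processing than the calls were. For B2m, H2-K1, H2-D1, Tapbp, Tap1 and H2-Q4 the sign was the same under all 15 alternatives, with H2-Q4 always the gene that was higher. H2-Q7, H2-T23, Tap2 and Nlrc5, all within 0.12 of 0, changed sign in at least 1 alternative each.

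The calls are set here beside the shares of all genes called lower and higher under the same setting. DESeq2 (5.91% and 5.41%), no filter on low counts (4.43% and 4.68%), unstranded counts (5.08% and 3.81%), voom quality weights (13.3% and 11.5%) and protein-coding genes only (7.09% and 6.92%) each called B2m, H2-K1, H2-D1 and Tapbp lower and H2-Q4 higher. RLE size factors (6.53% and 4.77%) gave the 4 calls reported. Library totals (3.28% and 11.3%) left H2-K1 and Tapbp lower and H2-Q4 higher. The outside-exon covariate (2.71% and 2.51%) left Tapbp and H2-Q7 lower and H2-Q4 higher. Tapbp alone was called without control 1 (1.43% and 0.529%), control 2 (1.18% and 0.299%) or Cmtr1 cKO 2 (3.44% and 1.81%). H2-Q4 joined it without Cmtr1 cKO 1 (3.73% and 2.15%), and H2-K1 did without Cmtr1 cKO 3 (3.03% and 1.75%). Without Cmtr1 cKO 4 (15.4% and 15.4%) B2m, H2-K1, H2-D1, Tap1 and Tapbp were lower and H2-Q4 higher.

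**Figure D5:**
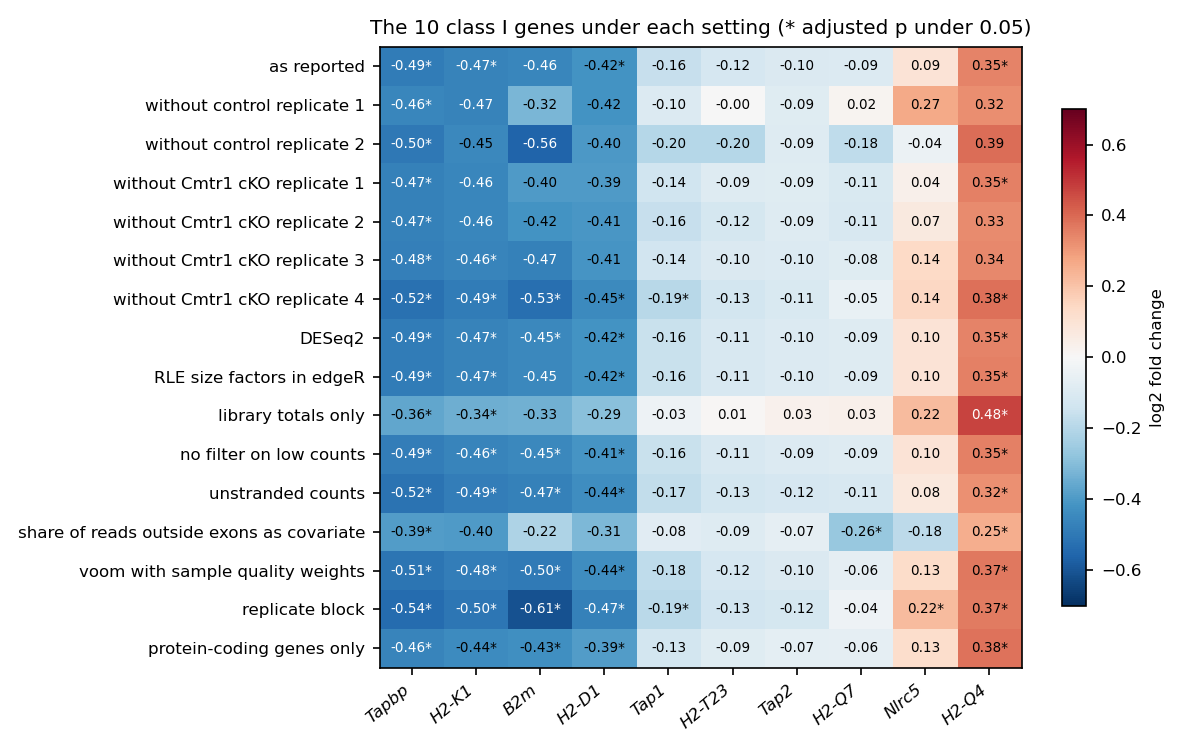
Log2 fold change of the 10 class I genes as reported (top row) and under 15 alternative settings. Colour runs from blue (lower in Cmtr1 cKO) to red (higher), numbers are the log2 values, and a star marks an adjusted p under 0.05 by the tool of that row; Tapbp is starred in every row.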

How the data were processed

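The authors deposited raw read counts per gene, 1 table per library, with the columns that STAR writes. The submitters' processing notes name STAR 2.5.2b and edgeR, and the builds mm10 and GRCm38. Libraries were made with a TruSeq kit and ribosomal RNA depletion, per the labels' protocols. The annotation used for counting and the read length are not given in the sources used here. Identifiers were matched without version numbers to GENCODE vM21 (46488 of 46983, 98.9%). The stranded column with the higher total was used (5.57 times the other in Cmtr1 cKO 3 and 18.7 to 22.7 times in the other libraries). Rows naming no gene held 52.1% to 62.0% of reads and were left out, so reads mapping to several class I copies are in no count.

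Genes were kept by filterByExpr, scaled by TMM and tested with glmQLFit (robust) and glmQLFTest of edgeR 4.0.16 (R 4.3.3), with genotype as the only term and all 6 libraries. A gene was called at a Benjamini-Hochberg adjusted p under 0.05 over 12748 genes. SE is the log2 fold change divided by the square root of F. The common dispersion gave a biological coefficient of variation of 9.59%. DESeq2 1.42.0, limma 3.58.1 (voom with sample quality weights), other scalings, filters, columns, a covariate, a replicate block and leaving out each library were alternatives. The code was tested on simulated data. Counting error per library was at most 2.28% for the 10 genes (Tap2); it covers counting only.

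The letters of the kappa B and interferon consensus motifs were read from the RefSeq window of H2-K1. The members and lists were chosen with earlier results of these data known. Named were all 10 genes, the called genes of each class I list (at most 6 by size), Rfx5, and the 5 genes nearest in profile to H2-K1 and to Nlrc5; marker and class II genes and other list members named with values were chosen after these were seen. All matched names were read from the files, and Hm13, H2-Q8 and H2-Q9 were not matched.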

Additional observations from a re-analysis of the deposited data

How the results depend on the processing

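Over all genes 1457 were called. The count was 2272 without a filter, 666 with the outside-exon share as covariate, 3170 with voom quality weights and 193 to 3880 with 1 library left out. With library totals as the only scaling, which moved the median of all genes from -0.00047 to 0.13, 418 were lower and 1441 higher, against 863 and 594. Of the 10 class I genes 3 were lower (1 to 5 with 1 library left out, highest without Cmtr1 cKO 4) and 1 higher (0 or 1). Of the other class I genes 5 were lower and 1 higher. These were 6 and 2 with DESeq2, 1 and 5 with library totals, 7 and 3 without a filter, 3 and 1 on unstranded counts, 1 and 0 with the covariate, 10 and 3 with voom weights, and 0 to 12 and 0 to 3 with 1 library left out. The signs of H2-Q7 (0.034 with library totals, -0.18 to 0.017 with 1 library left out), H2-T23 (0.010) and Tap2 (0.028, both with library totals), Nlrc5 (-0.18 with the covariate, -0.040 to 0.27 with 1 library left out) and Rfx5 (-0.019 with the covariate) turned, and none was called where it turned; the cause was not tested. The replicate block, on the 2 numbers the groups share, gave 4842 calls over all genes (19.2% lower, 18.8% higher), 5 lower (B2m and Tap1 added) and 2 higher (Nlrc5 added, at 0.22, edgeR adjusted p = 0.00147) of the 10 class I genes, and 15 lower and 3 higher of the others. Deviations of same-numbered libraries correlated at 0.13 and -0.13. With 2 controls, whose deviations mirror each other, this does not show a pairing, and the labels give none. The difference in the outside-exon share was 11.6 percentage points, and 9.83 to 14.6 with 1 library left out. With 1 control left, that control was assumed to vary like the other group.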
